A study of Mus musculus with 2 samples.

Results

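Collagen genes were taken as the protein-coding genes of GENCODE vM21 whose symbol is Col, a number, a, and a number, which gave 44 of 21938 protein-coding genes. The 3 pairs of collagen IV genes that start head to head were each counted as 1 region, so the 44 genes formed 41 loci. CTCF binding was measured by chromatin immunoprecipitation and sequencing (ChIP-seq) in the hindbrain of B6NCrl mice on postnatal day 0. Hindbrains of several dissections were pulverized and pooled, no sex was recorded, and the design has 1 group with no treatment or comparison tissue. Both libraries, numbered as biological replicates 1 and 2, carry the label of the same pooled sample, so differences between them may be technical. Of the 62686 peaks in the authors' optimal set, the larger of the sets kept for reproducibility between the libraries, 224 had their summit in a collagen gene or within 10 kb of either end. Each peak carries a signal value on the scale of the authors' peak caller, with no stated unit, and the median over all optimal peaks was 73.9. How deeply each library was sequenced cannot be read from peak lists.

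Collagens are secreted or membrane-bound proteins of the extracellular matrix whose chains wind into a triple helix. Fibrillar collagens build tensile fibres, collagen IV forms the sheet of basement membranes, and smaller families decorate fibres or anchor cells to them. In the brain the meninges and the blood vessels are rich in collagens. CTCF is a zinc-finger protein that binds a long DNA motif with a direction, and together with cohesin it holds the feet of chromatin loops. Peaks were sorted by where the summit lay: within 1 kb of any start site annotated for the gene (promoter), otherwise in an exon, in an intron, or outside the gene within 10 kb (flank). Peaks in bulk tissue show where CTCF was bound in some of the cells, and cell types cannot be told apart.

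Sequences under strong collagen peaks of each class are shown here because they carry sites that the results describe. They were chosen from different genes, apart from Col1a1, which is shown at both of its strong promoter peaks. Each is 54 bases of the mm10 reference (GRCm38), written 5′ to 3′ on the strand of the motif, and the capitals mark the 14 bases that best match the CTCF core consensus within 50 bp of the summit.
Col18a1 intron, chr10:77130749-77130802, plus strand: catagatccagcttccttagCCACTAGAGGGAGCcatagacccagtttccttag
Col16a1 intron, chr4:130087511-130087564, minus strand: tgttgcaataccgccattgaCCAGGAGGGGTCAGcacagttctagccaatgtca
Col22a1 intron, chr15:71917775-71917828, plus strand: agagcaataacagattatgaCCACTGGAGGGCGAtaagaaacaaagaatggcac
Col8a2 flank, chr4:126321726-126321779, minus strand: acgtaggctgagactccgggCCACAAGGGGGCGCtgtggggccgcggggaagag
Col4a1 intron, chr8:11253661-11253714, plus strand: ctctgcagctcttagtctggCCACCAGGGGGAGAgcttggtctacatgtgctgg
Col13a1 internal promoter, chr10:61877971-61878024, plus strand: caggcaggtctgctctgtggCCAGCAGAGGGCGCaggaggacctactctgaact
Col27a1 promoter, chr4:63215279-63215332, plus strand: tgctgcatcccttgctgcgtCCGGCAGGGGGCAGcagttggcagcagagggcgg
Col4a3 exon, chr1:82641844-82641897, minus strand: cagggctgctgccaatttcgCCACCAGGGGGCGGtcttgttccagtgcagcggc
Col1a1 internal promoter, chr11:94939445-94939498, plus strand: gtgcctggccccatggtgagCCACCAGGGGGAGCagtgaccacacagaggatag
Col1a1 promoter, chr11:94937154-94937207, minus strand: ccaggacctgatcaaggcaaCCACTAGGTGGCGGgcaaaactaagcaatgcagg
Col23a1 promoter, chr11:51289601-51289654, plus strand: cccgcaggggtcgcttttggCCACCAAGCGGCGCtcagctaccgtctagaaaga
The sites in Col13a1, Col4a3 and on the minus strand of Col1a1 match the consensus without a mismatch. Those in Col18a1, Col8a2, Col27a1 and the other Col1a1 site differ from it at 1 position, and the rest at 2. The Col27a1 promoter site lay over 1 kb past the 5′ end of the gene, near another annotated start.

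CTCF peaks lay at nearly all collagen genes, and most of them were inside the introns. Of the 44 genes, 43 had a peak in the gene or its flanks (97.7%, Wilson 95% interval 88.2 to 99.6), against 75.5% of all protein-coding genes. The 224 peaks comprised 24 at promoters, 9 in exons, 148 in introns and 43 in flanks, with 1 of the flank peaks lying between Col9a1 and Col19a1 and counted for both. An intron peak was present in 38 genes (86.4%, background 38%), a flank peak in 26 (59.1%, background 53.5%) and an exon peak in 8 (18.2%, background 11.9%). A promoter peak was present in 15 genes (34.1%, interval 21.9 to 48.9), against 39.8% of all protein-coding genes, a share inside that interval. Neighbouring genes can share sites, so the intervals, which count genes as independent, may be too narrow.

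Collagen genes are long, which bears on the intron share. Their median length was 114.4 kb, against 17.4 kb for all protein-coding genes, and the median number of peaks per gene was 4 against 2. Among genes of 100 to 200 kb, 17 of 18 collagen genes had an intron peak, with a background of 89%, and above 200 kb all 8 had one, with a background of 96.2%. From 50 to 100 kb the counts were 3 of 3 with a background of 75.5%. From 20 to 50 kb they were 8 of 11 with 50.3%, and under 20 kb 2 of 4 with 13.1%. The share was above the background in each length class, with few collagen genes in the shorter classes. Per length of intron the collagens held 30.7 peaks per Mb and all protein-coding genes 26.9. Per length of exon the collagens held fewer, 31.7 peaks per Mb against 42.1, although a larger share of them had an exon peak. Over the genes with their flanks the densities were 36.0 and 40.7 per Mb, and at promoters 79.9 and 119 per Mb.

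**Figure D1:**
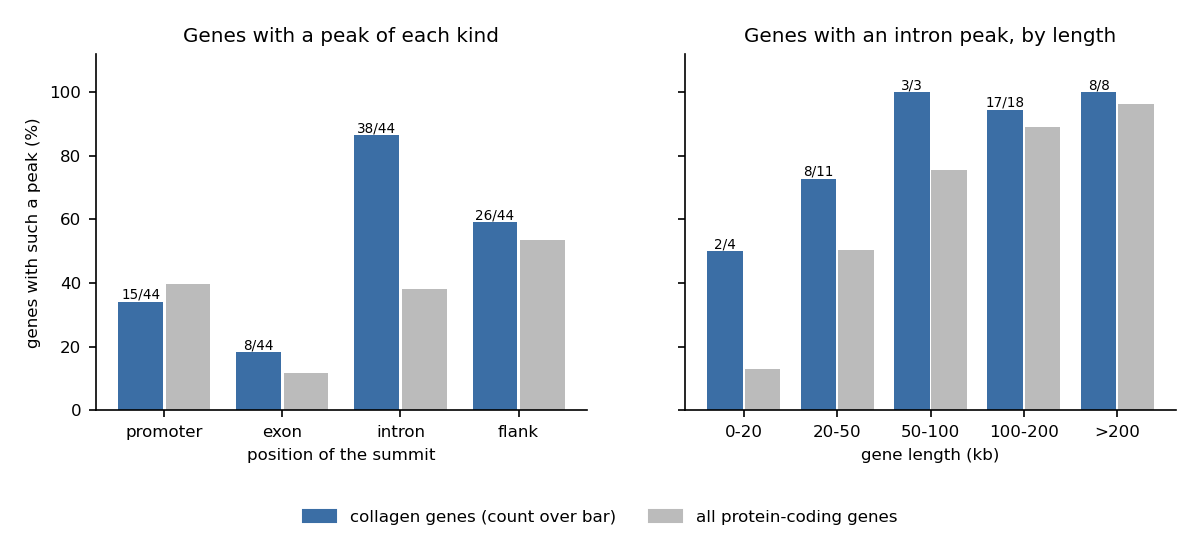
Share of genes (%) with a CTCF peak of each kind, at left by position of the summit and at right for intron peaks by gene length in kb, for collagen genes (blue, with counts over the bars) and all protein-coding genes (grey). An intron peak was present in 38 of 44 collagen genes, and in the 2 longest classes both groups of genes lay at or above 89%.

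The count of promoter peaks depended on how a promoter was drawn. Of the 24 promoter peaks, 11 lay within 1 kb of the 5′ end of the gene itself, at 9 genes, and 6 genes had a peak at another annotated start alone. With the 5′ end as the sole start, 9 of 44 genes (20.5%) had a promoter peak, against 31.8% of all genes. With the starts of protein-coding transcripts alone, 11 genes (25%) had one, against 36.2%. With 500 bp around any annotated start, 10 genes (22.7%) did, against 32.3%. With 2.5 kb around any annotated start, 28 genes (63.6%) had one, against 49.2%, and with 2.5 kb around the 5′ end alone 19 genes (43.2%) against 40.9%. Several strong peaks stood just past the 1 kb limit. Examples were Col14a1 (364.1) at 1289 bp upstream, Col13a1 (374.7) at 1512 bp upstream, Col26a1 (369.4) at 1644 bp inside the gene and Col9a2 (242.7) at 1739 bp inside it. The median distance from the 5′ end to the nearest summit was 3.54 kb for collagen genes and 4.91 kb for all protein-coding genes.

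Collagen promoters are mostly poor in CpG, the dinucleotide that is dense at the starts of many widely expressed genes. The median ratio of observed to expected CpG in 1001 bp around the 5′ end was 0.435 for collagen genes and 0.552 for all protein-coding genes. Of the 12 collagen genes with a ratio over 0.6, 8 had a promoter peak (66.7%, background 58.1%), and of the 32 others 7 did (21.9%, background 24.2%). In both classes the share of collagen genes was near that of all genes. The ratio was taken at the 5′ end alone, while a promoter peak could lie at any annotated start of the gene. Col4a1, Col4a2, Col8a2 and Col12a1 were the CpG-rich genes without a promoter peak.

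**Figure D2:**
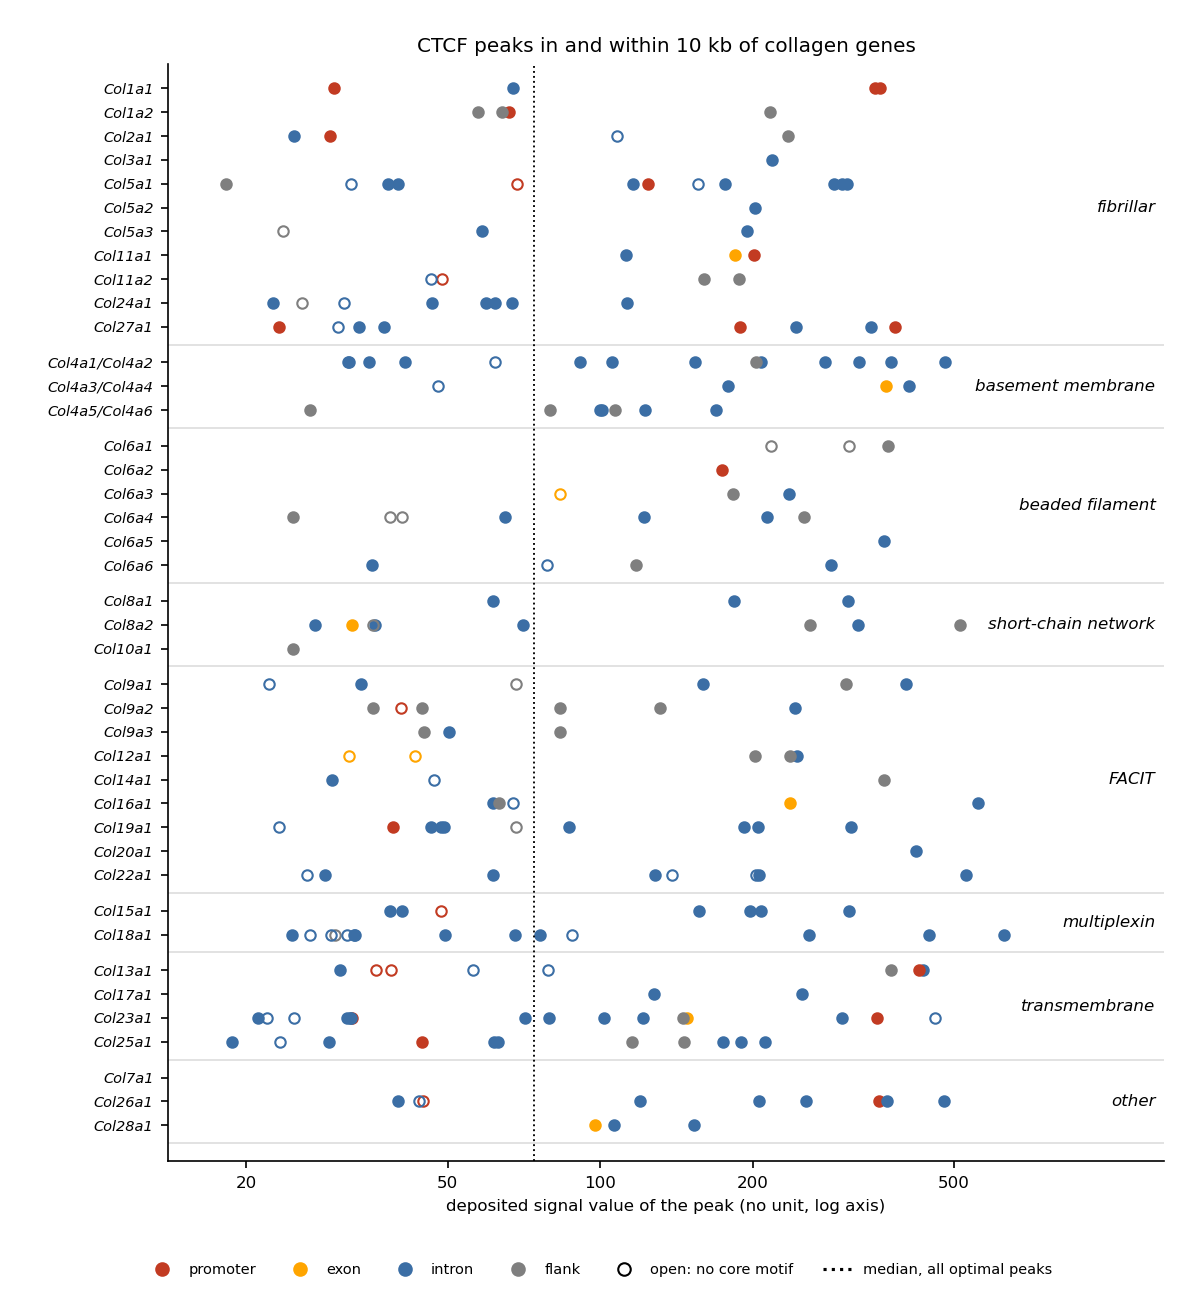
Signal value (no unit, log axis) of each CTCF peak at the 41 collagen loci, grouped by family, with the colour giving the position of the summit, filled circles a core motif and open circles none. The dotted line is the median of all optimal peaks, 73.9; peaks of each family lie on both sides of it, and Col7a1 has none.

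The fibrillar collagens, which assemble into the cross-banded fibres of skin, bone, cartilage and meninges, had a promoter peak at 7 of 11 genes, against 39.8% of all protein-coding genes. Their 11 genes had 52 peaks, 12 at promoters, 1 in an exon, 30 in introns and 9 in flanks, with a median signal of 67.9. In Col1a2, Col2a1 and Col11a1 the promoter peak lay over 1 kb from the 5′ end, near another annotated start. That start belonged to a retained-intron transcript in Col1a2 and Col11a1 and to a processed transcript in Col2a1. These genes would not count with the 5′ end as the sole start, where the share over all protein-coding genes was 31.8%. Among the other families, the counts were 0 of 6 basement membrane, 1 of 6 beaded-filament, 0 of 3 short-chain and 2 of 9 FACIT genes. They were 1 of 2 for multiplexins, 3 of 4 for transmembrane collagens and 1 of 3 for the rest. Col1a1, a chain of the most abundant fibre-forming collagen, had 3 promoter peaks within its 16.8 kb. The first (chr11:94936885-94937301, signal 348.3, intron 1) lay 941 bp past the 5′ end and ranked 5897 in replicate 1 and 3324 in replicate 2. The next (chr11:94939335-94939598, signal 356.4, intron 6) lay 3250 bp past the 5′ end, near the start of a retained-intron transcript, and ranked 4407 and 4151. Their motifs point away from each other, as the sequence lines above show by strand. The last promoter peak of Col1a1 was weak, at 29.8. Its partner chain gene Col1a2 had a promoter peak of 66.0 at 1616 bp past its 5′ end and 3 peaks beyond its 3′ end, the strongest of them at 216.4.

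Col27a1, a fibrillar collagen of cartilage, had the strongest promoter peak of the family. That peak (chr4:63215165-63215430, signal 381.5, ranks 2992 and 3073) lay 1308 bp past the 5′ end of the gene and 100 bp from another annotated start. A second one of 189.3 followed at 2143 bp (chr4:63216053-63216231, ranks 15559 and 16566). At the 5′ end itself stood a weak peak of 23.2, which ranked 50151 in replicate 2 and 104010 in replicate 1 and was absent from the authors' conservative set. Col5a1, a regulatory chain that sets fibre diameter, had 12 peaks, more than any other fibrillar gene. Of these, 2 lay at the promoter, with signals of 68.4 and 124.5. In order from the 5′ end its 9 intron peaks stood at 155.7, 115.9, 308.0, 32.2, 38.0, 289.1, 300.0, 176.1 and 39.9. Its upstream flank held the weakest peak of all collagen loci, at 18.2. The strongest intron peaks of Col5a1 thus lay in the middle of the gene, between 40532 and 87625 bp from its 5′ end.

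Col11a1, a chain of thin cartilage fibres, had 3 peaks. One at 201.4 (chr3:114147244-114147414, ranks 15212 and 14560) lay in intron 36, 196 bp from the start of a retained-intron transcript, and counted as a promoter peak. Another at 184.7 (chr3:114032521-114032647, ranks 14446 and 19041) lay in an exon of a retained-intron transcript, 2008 bp past the 5′ end. Col11a2 and Col2a1, both chains of cartilage fibres, had weaker promoter peaks of 48.6 and 29.3. Col3a1 and Col5a2, neighbours on chromosome 1, each had a single intron peak, of 218.9 and 202.3. Col5a3 had an intron peak of 194.7, and the strongest of the 8 peaks of Col24a1 stood at 113.0.

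The basement membrane collagens, the 6 chains of collagen IV that form the sheet around vessels and epithelia, had no promoter peak at any gene. Their 3 gene pairs each share a start region, with 5′ ends 21 bp apart for Col4a1 and Col4a2, 72 bp for Col4a3 and Col4a4, and 1309 bp for Col4a5 and Col4a6. The pairs held 25 peaks, 20 in introns, 1 in an exon and 4 in flanks, with a median signal of 106.8. Around the shared start of Col4a1 and Col4a2, 72.6 kb were without a summit, of which 30.2 kb lay in Col4a1 and 42.4 kb in Col4a2. Around that of Col4a3 and Col4a4 the span was 69.9 kb, and around that of Col4a5 and Col4a6 353.7 kb. Spans of this kind were not measured around the starts of other genes, so no usual length can be set beside them. In the pooled list of 251251 candidate peaks, made by the authors from both libraries together, the first and second pairs had a candidate within 1 kb of a start. Those had signals of 9.96 and 9.13 and ranks of 141184 and 160523, and the third pair had none. For comparison, 39.8% of all protein-coding genes had an optimal peak within 1 kb of any annotated start, and 31.8% within 1 kb of the 5′ end. The 6 collagen IV genes share 3 start regions, so they are not 6 separate cases in this comparison.

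Col4a1 and Col4a2 encode the chains found in nearly all basement membranes, those of brain vessels included. Col4a1 had 3 intron peaks, at 34.96 in intron 1, at 479.8 in intron 2 and at 278.2 in intron 40. The one in intron 2 (chr8:11253554-11253832) ranked 391 and 783 in the libraries. Col4a2 had 10 intron peaks and 1 flank peak, and all of its intron peaks lay over 42 kb from the start. In order from the 5′ end the intron signals were 41.2, 31.8, 376.2, 62.1, 105.7, 324.9, 154.2, 207.4, 91.2 and 31.7. The peaks of 324.9 and 154.2, in introns 20 and 22, both had a motif without a mismatch. The flank peak beyond its 3′ end stood at 203.5. Of the 14 peaks of this pair, 11 thus lay in or beyond Col4a2.

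Col4a3 and Col4a4, chains of the kidney, inner ear and lung basement membranes, had 4 peaks. The strongest (chr1:82476347-82476605, signal 408.0) lay in intron 37 of Col4a4 and ranked 3600 in replicate 1 and 1111 in replicate 2, 1 of the largest gaps between the libraries at collagen loci. The other Col4a4 peaks stood at 178.8 in intron 4 and 47.8 in intron 1. The sole peak of Col4a3 (chr1:82641733-82641985, signal 366.6, ranks 4545 and 3205) was the strongest exon peak of the collagens. Its exon belongs to an alternative transcript, and in the principal coding transcript the summit lies in intron 2.

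Col4a5 and Col4a6 lie on chromosome X and had 7 peaks over a locus of 524 kb. Col4a6, found in smooth muscle and epithelial membranes, had intron peaks of 169.3, 99.8 and 122.9 and flank peaks of 106.8 and 79.7 beyond its 3′ end. The intron signals are given from the 5′ end on, the first of them 237335 bp from it. Col4a5, which partners Col4a3 and Col4a4 in the kidney, had 1 intron peak of 100.8, 115067 bp from its 5′ end, and a flank peak of 26.7. All 7 peaks had a motif. The strongest signal of this pair was lower than the strongest of the other pairs (479.8 and 408.0).

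**Figure D3:**
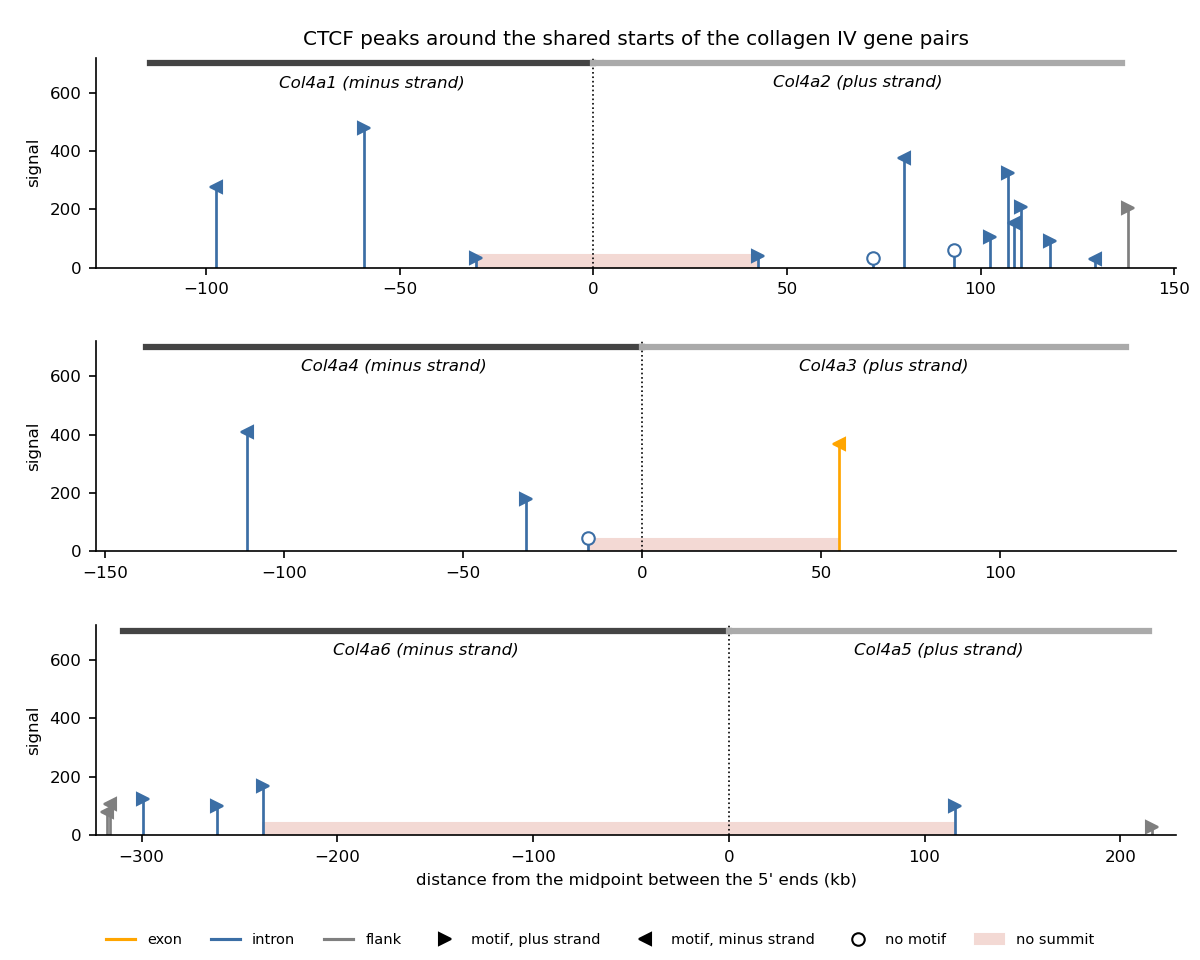
CTCF peaks at the collagen IV gene pairs, by distance from the midpoint between the 5′ ends (kb) and signal value (no unit). Triangles give the direction of the motif, open circles peaks without it, and the shaded strip on each baseline the stretch without a summit, which spans 72.6, 69.9 and 353.7 kb from top to bottom.

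The beaded-filament collagens, collagen VI chains that link cells to the surrounding matrix, had 19 peaks with a median signal of 174.4, and 13 of those peaks had a motif. Col6a1 had no peak inside the gene and 3 strong ones upstream of it, at 217.4 (2408 bp from the 5′ end), 310.8 (7253 bp) and 370.6 (9062 bp). The farthest (chr10:76735096-76735350) ranked 2087 and 5860, and the middle one (chr10:76733301-76733543) 5951 and 7593. Of these peaks, those of 310.8 and 217.4 lacked the motif, with best matches of 4 and 3 mismatches. Col6a2, the neighbour of Col6a1 on chromosome 10, had a single peak of 174.4 in the untranslated part of exon 1, 184 bp past the 5′ end (chr10:76623371-76623547, ranks 17701 and 16788).

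Col6a3, the longest chain of the same molecule, had peaks of 83.4 in coding exon 2, 236.1 in an intron and 183.0 upstream. The exon peak (chr1:90830021-90830340) ranked 30426 and 27724. Col6a4, Col6a5 and Col6a6 lie in a row on chromosome 9 and had 7, 1 and 4 peaks. Their strongest stood at 253.3 in the flank of Col6a4, 363.6 in an intron of Col6a5 and 285.5 in an intron of Col6a6. None of these genes had a promoter peak.

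The short-chain collagens, which form open networks in the cornea, vessel walls and growth plate, had 12 peaks and none at a promoter. Col8a2 had 8 of them. Its strongest (chr4:126321625-126321974, signal 514.9, ranks 390 and 138) lay 7456 bp beyond its 3′ end and 83 bp from a start site of Adprhl2. An exon peak of 32.3 in coding exon 3 (chr4:126309613-126309775) ranked 71215 in replicate 1 and 35314 in replicate 2 and was absent from the conservative set. Col8a1 had intron peaks of 308.9, 184.1 and 61.5. Col10a1, the collagen of growth-plate cartilage, had a single weak flank peak of 24.8.

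The FACIT collagens, which sit on the surface of fibres with interrupted helices, had 46 peaks at 9 genes and a promoter peak at Col9a2 (40.4) and Col19a1 (38.9). Col16a1 had the second strongest peak of all collagens, 557.2 in intron 55 (chr4:130087390-130087703, ranks 89 and 98). It also had an exon peak of 237.1 in coding exon 33 (chr4:130066907-130067110, ranks 11385 and 12664). Col22a1, a collagen of tissue junctions, had a peak of 529.2 in intron 23 (chr15:71917661-71918002, ranks 223 and 127) among its 8 peaks. Col20a1 had 1 peak, at 420.7 in intron 8 (chr2:180996502-180996780, ranks 1484 and 2066).

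Col9a1, a chain of the cartilage FACIT, had an intron peak of 402.8 and an upstream peak of 305.6 (chr1:24171538-24171779, ranks 6940 and 7778). The flank peak that it shares with its neighbour Col19a1 stood at 68.1. Col19a1, which is expressed by neurons among other cells, had 10 peaks, the strongest at 312.3 in an intron. Col14a1 had an upstream peak of 364.1 (chr15:55306335-55306594, ranks 3815 and 4231). Col12a1 had peaks on both sides of its start, at 237.5 (2486 bp upstream) and 245.2 (1741 bp inside the gene), and weaker exon peaks of 31.9 and 43.0 (the latter at chr9:79714480-79714799, ranks 39560 and 43058). The strongest peak of Col9a2 was 242.7 and that of Col9a3 83.4.

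The multiplexins, basement membrane proteins whose C-terminal fragment can be released as endostatin or a relative of it, had 21 peaks at Col15a1 and Col18a1. Col18a1 had the strongest peak of the collagens, with a signal of 628.5 and rank 11 among all optimal peaks (chr10:77130567-77130938). It ranked 12 and 16 in the libraries and lay in an intron, 35787 bp past the 5′ end. A further intron peak of Col18a1 (chr10:77082579-77082866, intron 5 of the principal coding transcript) stood at 446.2, with ranks of 1468 and 772. In order from the 5′ end, its 13 intron signals were 26.7, 29.4, 32.7, 87.8, 24.6, 628.5, 76.0, 67.9, 446.2, 258.1, 49.4, 31.5 and 32.6. A flank peak of 29.9 followed beyond the 3′ end, so that 3 strong peaks stood among weaker ones. Col15a1 had 6 intron peaks, the strongest at 310.4, and a promoter peak of 48.4.

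The transmembrane collagens, which span the cell membrane and can be shed, had promoter peaks at 3 of 4 genes, against 39.8% of all protein-coding genes. Col23a1 had 16 peaks, the most of any collagen gene, over 294.0 kb. Its promoter peak (chr11:51289491-51289763, signal 351.7, ranks 4507 and 4812) lay 298 bp upstream of the 5′ end, the strongest collagen promoter peak within 1 kb of a 5′ end. A peak of 148.2 (chr11:51582884-51583024, ranks 19936 and 19530) lay in the untranslated part of its last exon. An intron peak of 459.1 (chr11:51539625-51540012, ranks 750 and 993) had no motif near the summit. A weak promoter peak of 32.3 lay 399 bp past the 5′ end, and a flank peak of 145.7 just beyond the 3′ end. In order from the 5′ end, the 12 intron signals of Col23a1 were 21.1, 31.7, 101.8, 24.8, 21.9, 121.5, 32.0, 32.3, 79.3, 299.9, 459.1 and 71.1. The strongest of these lay near each other, 244588 and 249891 bp from the 5′ end.

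Col13a1, a collagen of cell junctions such as the neuromuscular synapse, had 8 peaks, 3 of them strong. The strongest, 434.4 in intron 40 (chr10:61838798-61839078, ranks 1662 and 1047), lay near the 3′ end. The next, 425.9 (chr10:61877875-61878133, ranks 1734 and 1231), lay in intron 18, 396 bp from the start of a processed transcript, and so counted as a promoter peak. The third, 374.7 (chr10:61980486-61980747, ranks 2702 and 4149), lay 1512 bp upstream of the 5′ end. All 3 had a motif without a mismatch on the strand opposite to the gene. The promoter peaks near the 5′ end of Col13a1 were weak, at 38.7 and 36.1. Col25a1, a neuronal collagen, had 11 peaks over 468.4 kb, with a promoter peak of 44.5 at an internal start. Its 8 intron signals, from the 5′ end on, were 18.7, 189.8, 61.7, 29.1, 23.3, 62.7, 211.4 and 174.5. Flank peaks stood at 146.2 upstream and 115.3 beyond the 3′ end. Col17a1, a collagen of epithelial anchoring complexes, had 2 intron peaks, of 250.5 and 127.5.

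**Figure D4:**
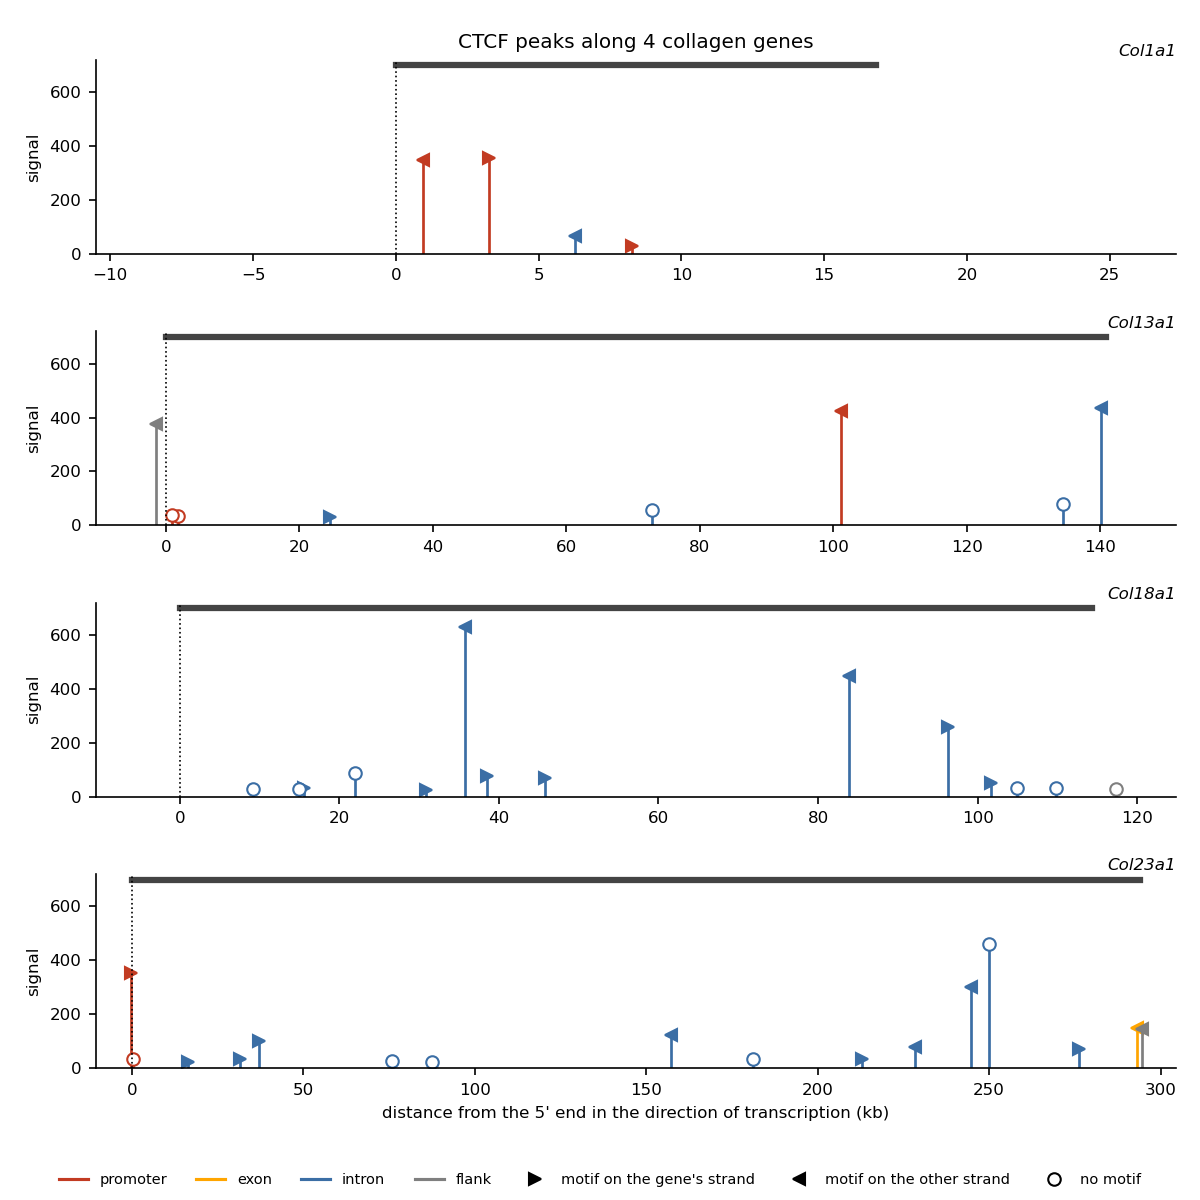
CTCF peaks along Col1a1, Col13a1, Col18a1 and Col23a1, by distance from the 5′ end in the direction of transcription (kb) and signal value (no unit); triangles point right where the motif is on the strand of the gene and left where it is on the other. The strong peaks of Col1a1 lie in the first 3.3 kb, and those of Col13a1 near the start, at an internal start and near the end of the gene.

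The remaining genes were Col26a1, Col28a1 and Col7a1. Col26a1 had 9 peaks, with 477.1 in intron 3 (chr5:136790862-136791148, ranks 634 and 470) and 355.8 in intron 5 near an internal start (chr5:136755762-136756024, ranks 3409 and 5248). Both had a motif of the same 14 bases without a mismatch, on opposite strands. Col28a1 had 3 peaks, of 153.1 and 106.3 in introns and 97.9 in coding exon 19 (chr6:8086819-8087138, ranks 28065 and 24779). Col7a1, the collagen of the fibrils that anchor skin to its basement membrane, was the sole collagen gene without an optimal peak. The pooled list held 14 candidates at this gene of 31.3 kb, the strongest in an intron (chr9:108957474-108957793) with a signal of 21.4 and rank 68291. That candidate was in the conservative set, so Col7a1 had a peak there.

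By class of position, collagen peaks and those of all protein-coding genes had near signals at promoters (medians 57.3 and 59.1) and flanks (115.3 and 114.9). In exons the medians were 97.9 over 9 collagen peaks and 79.0, and in introns 89.5 and 69.8. Among the 62686 optimal peaks, 7 collagen peaks were in the top 1000 and 39 in the top 10000. With the optimal peaks split by signal into parts of equal size, the collagen counts were 69, 53, 52 and 50 from the strongest part down. Collagen peaks were thus spread over the whole range of signal. Of the 140 intron peaks that could be numbered, 13 (9.29%) lay in the first intron, which made up 12.6% of the intron length. Summits within 1 kb of an annotated start were classed as promoter peaks, also where they lay in the first intron. The count therefore cannot show whether peaks pile up close to the start.

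The CTCF core motif was present in most collagen peaks. It was found, at up to 2 mismatches and no farther than 50 bp from the summit, in 174 of the 224 (77.7%, 95% interval 71.8 to 82.6), against 65.4% of all optimal peaks. Windows placed 1 kb to the left and right of all optimal summits held one in 2.85% and 2.98%. The collagen share was above that of all peaks among the stronger peaks (91.0% of 122 against 80.1%) and the weaker ones (61.8% of 102 against 50.8%), divided at the median of all optimal peaks. It was 66.7% at promoters (all genes 42.9%), 66.7% in exons (65.0%), 79.7% in introns (69.2%) and 79.1% in flanks (74.3%). A perfect match was found in 21 peaks (9.38%, all peaks 8.70%). Peaks with a motif had a median signal of 126 (n = 174), and those without it 40.5 (n = 50).

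Among the 50 peaks without a motif, 7 had a signal over 100. The strongest was the Col23a1 intron peak of 459.1, whose best match at the summit had 5 mismatches, while a match with 1 mismatch lay elsewhere in its 388 bp. The others lay at Col6a1 (310.8 and 217.4), Col22a1 (203.4 and 138.6), Col5a1 (155.7) and Col2a1 (107.9). With the whole peak searched, the share with a motif was 80.4% for collagens and 69.0% for all optimal peaks.

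A group of intron and flank sites shared the first 12 bases of the motif. The most frequent motif in the optimal set begins with the 12 bases CCAGAAGAGGGC, and 19 of the 174 collagen motifs (10.9%, Wilson interval 7.10 to 16.4) began with them, against 13.2% of the motifs of all optimal peaks. The 19 peaks lay in introns or flanks of 11 genes, none at a promoter or in an exon. Few collagen motifs lay there at all, with 16 of the 174 at promoters and 6 in exons. The positions of such sites over all optimal peaks were not counted. All 19 motifs were in sequence that the reference marks as repetitive, against 11 of the other 155 collagen motifs (7.10%). Over all optimal peaks the shares were 99.6% and 9.32%. Examples are printed to show how far the likeness goes beyond the motif, which the capitals again mark. The first 6 were picked after the sequences were seen, for resembling each other in part of the flanks, and the last 2 because they differ from those.
Col14a1 intron, chr15:55495244-55495297, plus strand: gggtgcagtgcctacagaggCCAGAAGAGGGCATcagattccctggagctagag
Col15a1 intron, chr4:47252798-47252851, plus strand: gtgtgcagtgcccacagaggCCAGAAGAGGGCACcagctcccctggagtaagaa
Col4a2 intron, chr8:11423271-11423324, plus strand: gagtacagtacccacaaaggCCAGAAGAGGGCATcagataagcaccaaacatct
Col26a1 intron, chr5:136780643-136780696, minus strand: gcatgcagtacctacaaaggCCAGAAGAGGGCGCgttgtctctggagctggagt
Col25a1 intron, chr3:130576866-130576919, minus strand: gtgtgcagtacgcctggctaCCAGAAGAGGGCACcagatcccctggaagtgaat
Col8a2 intron, chr4:126306224-126306277, plus strand: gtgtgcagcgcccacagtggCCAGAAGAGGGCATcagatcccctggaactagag
Col9a2 flank, chr4:121029809-121029862, minus strand: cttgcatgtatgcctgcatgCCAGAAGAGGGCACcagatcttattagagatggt
Col8a2 intron, chr4:126304037-126304090, minus strand: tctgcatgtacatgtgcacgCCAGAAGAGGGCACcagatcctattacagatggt
The flanks are not the same throughout. On average, pairs of the 19 sites had the same base at 46.4% of the 40 flanking positions, against 26.7% for pairs of the other collagen motifs. Their median signal was 49.4 (range 24.6 to 207.4), against 153.1 for the other collagen motifs, and over all optimal peaks the medians were 48.9 and 129.8. Most were weak, and 5 of the 19 lay above the median of all optimal peaks, in Col4a2 (207.4), Col26a1 (205.8), Col25a1 (174.5), Col9a2 (83.1) and Col23a1 (79.3). As background, rodent genomes hold short interspersed repeats of the B2 family that carry CTCF motifs. The repeat family of these sites was not tested.

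Motif direction at collagen loci was mixed. Of the 124 exon and intron peaks with a motif, 3 matched equally well on both strands (in Col9a2, Col25a1 and Col27a1) and were left out, as were promoter peaks. Among the other 121, 65 had the motif on the strand of the gene (53.7%, Wilson interval 44.9 to 62.4), against 49.0% over all genes counted in the same way. With peaks of every class, and leaving out the 4 that match equally on both strands (the fourth a flank peak of Col11a2), consecutive motif-bearing peaks within a locus formed 130 pairs. A peak left out could thus lie between the members of a pair. Of the pairs, 64 (49.2%) pointed the same way, 32 (24.6%) towards each other and 34 (26.2%) away from each other. No counts of such pairs over all optimal peaks are set beside them, so no preference can be read from these shares.

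The libraries placed the collagen peaks in nearly the same order. Of the 224 peaks, 223 were in the lists of both libraries, and an intron peak of Col24a1 (22.6) was in that of replicate 1 alone. In both library lists, 191 peaks (85.3%) were among the 62686 strongest, against 83.3% of all optimal peaks. The conservative set, which is not a subset of the optimal set, held 204 of the 224 (91.1%), against 87.1% of all optimal peaks. Of its 225 peaks at collagen loci, 21 overlapped no optimal peak, while over the whole conservative set 54538 of 59979 peaks overlapped one. The 21 were all weak (18.0 to 36.9), among them the peak of Col7a1 and promoter peaks of Col14a1 (28.9) and Col2a1 (33.6). The median fold between the ranks in both libraries was 1.15, with 1.16 over all optimal peaks. The largest folds were 3.32 for a flank peak of Col6a4 (24.7), 3.28 for an intron peak of Col25a1 (18.7) and 3.24 for the Col4a4 peak of 408.0. The Col8a2 flank peak of 514.9 had a fold of 2.83, so that large folds were found among strong peaks too. Spearman's rho between the ranks was 0.957 across the 223 peaks, a description of peaks already chosen by the authors for reproducibility.

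**Figure D5:**
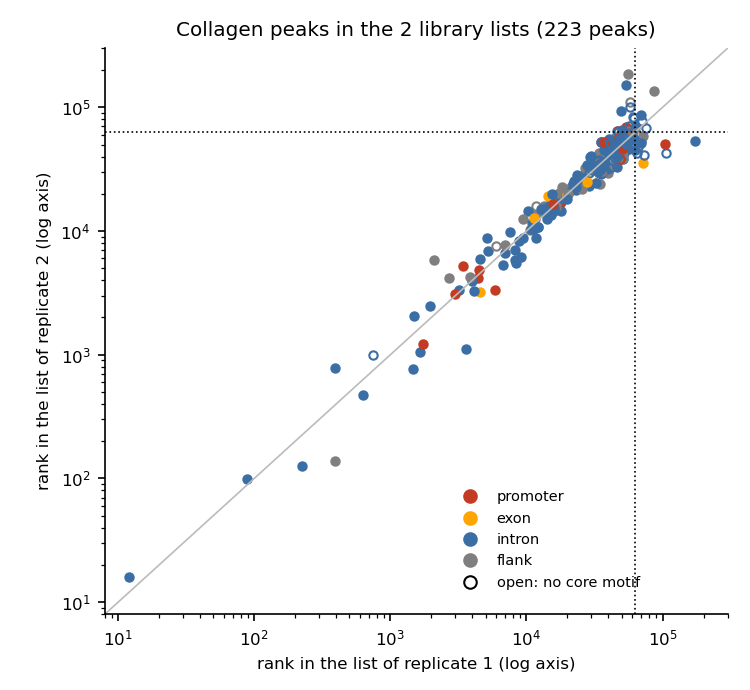
Rank of each of 223 collagen peaks among the 300000 peaks of replicate 1 and of replicate 2 (log axes), with colours and open circles as in the plot of signals by locus. Dotted lines mark rank 62686 and the grey line equal ranks; most points lie near the grey line, and those far from it include weak peaks and strong ones, such as the Col4a4 peak of 408.0.

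Genes that make, modify, bind or degrade collagen were counted from a list of 44. A promoter peak was present in 23 of them (52.3%, Wilson interval 37.9 to 66.2), with 39.8% over all protein-coding genes and 34.1% of the collagen genes themselves. The share over all protein-coding genes lies inside that interval, and the list was not compared with genes of like CpG ratio. By role the counts were 12 of 17 for the hydroxylases and chaperones that fold collagen chains, 3 of 10 for enzymes of trimming and crosslinking, 6 of 10 for receptors and 2 of 7 for degrading enzymes. The strongest stood at Adgrg1 (491.1), an adhesion receptor for collagen III in the developing cortex. Mmp9 (417.4), a gelatinase, P4ha1 (258.1), a prolyl hydroxylase, and Bmp1 (246.3), a procollagen protease, followed.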

How the data were processed

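CTCF ChIP-seq peaks were given as lists in the narrowPeak layout on mm10, per the file headers and labels. Each library had a list of 300000 peaks, a pooled list had 251251, and the authors derived the conservative (59979) and optimal (62686) sets by their reproducibility analysis. The names of the aligner and peak caller and the reproducibility threshold were not given in the sources used here. Signal values that the authors deposited are a score with no stated unit, and they served to order and describe the peaks of 1 list. The deposited summit offset in bp gave the summit, a position value that is neither a score nor a level. No read counts are held, so intervals cover counting error over genes or peaks alone. Control libraries were not used here.

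Members, roles and lists were chosen with earlier results of these data known, and no test was made on them. Genes came from GENCODE vM21 and sequence from the GRCm38.p6 assembly of RefSeq (lower case marks repeats). Of the optimal peaks, 62677 lay on assembled chromosomes. A peak was assigned by its summit: promoter (at most 1 kb from an annotated start of that gene), exon, intron, or flank within 10 kb. A summit at a start of another gene alone was not a promoter peak. Exons and introns are numbered in the principal coding transcript. The CTCF core consensus (14 bp) was looked for on either strand, at most 50 bp from the summit and with up to 2 mismatches. Values in full were given for the strongest peaks of each class, each collagen IV peak, the 5 genes with most peaks and genes with none, and other members by range or strongest peak. Col21a1, a FACIT collagen, had no protein-coding gene in this annotation. Shares carry Wilson 95% intervals. The motif search and the sorting by position were tested on simulated data. Python 3.11.15, numpy 2.4.6, scipy 1.17.1 and pysam 0.24.0 were used. Alternatives were the conservative set, the stronger peaks, each library alone, merged summits and other promoter, flank and motif limits.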

Additional observations from a re-analysis of the deposited data

How the results depend on the processing

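Of 82 alternative values for 9 results, 68 stayed within 1.5 times the count or within the interval of the value reported, and 14 did not. With the 31343 strongest optimal peaks alone, 8 collagen genes (18.2%) had a promoter peak, against 20.2% of all protein-coding genes. There were then 122 collagen peaks left, 80 in introns and 26 in flanks. At this limit 91% of peaks had the motif, the density was 1.97 per 100 kb (3.64 with all peaks) and 13 of the listed collagen-making and collagen-binding genes had a promoter peak. A promoter of 2.5 kb gave 28 collagen genes (63.6%, all genes 49.2%), and the 5′ end alone gave 9 (20.5%, all genes 31.8%). Flanks of 5 kb held 22 peaks and flanks of 25 kb 96. The motif share was 39.7% with at most 1 mismatch, 90.6% with at most 3, and 67% within 25 bp of the summit. These moves follow from fewer or more peaks, wider windows or other mismatch limits by construction. Searching the whole peak, and 2.5 kb around the 5′ end alone, were added after the data were seen. Without replicate 1, 17 collagen genes (38.6%) had a promoter peak, against 40.4% of all genes. Without replicate 2 there were 16 (36.4%), against 40.8%. With either library alone, 42 to 43 collagen genes had any peak, and there were 224 to 226 peaks. Of these 9 to 10 lay in exons, 147 to 151 in introns and 41 to 42 in flanks, with a motif share of 74.6 to 75.7% and a density of 3.64 to 3.67 per 100 kb. Both libraries gave 26 of the listed genes. In the conservative set, 44 collagen genes had a peak, Col7a1 included, and 16 (36.4%) had a promoter peak, against 38.5% of all genes. No paired analysis was possible because the design has 1 group.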
